A study of Mus musculus with 6 samples.

Results

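The FOXO transcription factors and the PI3K-AKT genes that govern them were followed in spermatogonia that had lost Ddx20. They comprised 8 genes, picked by name among the 22579 genes listed: the factors Foxo1, Foxo3 and Foxo4, the adaptor Irs2, the PI3K subunits Pik3r1 and Pik3ca, and the kinases Akt1 and Akt2. All 8 were found by symbol, and 7 of them had enough reads to be tested beside the other genes. RNA had been measured in 6 libraries, each made from some 1000 spermatogonia that carry THY1, at day 4, from Ddx20 knockout mice (3 libraries) and from control littermates (3 libraries). THY1 is a surface protein by which undifferentiated spermatogonia are enriched, and DDX20 is an RNA helicase of the complex that assembles spliceosomal particles. The labels also call the knockout cKO, and they give neither a Cre driver, the cells in which the gene was removed, the strain, nor which animals gave which library.

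FOXO proteins bind DNA through a forkhead domain and switch on genes of cell cycle arrest, stress resistance and metabolism. Growth factor receptors recruit PI3K, often through IRS adaptors, and the lipid that PI3K makes at the membrane brings AKT there to be activated. AKT phosphorylates FOXO proteins, which then leave the nucleus and are held in the cytoplasm. In the mouse testis FOXO1 marks gonocytes and spermatogonial stem cells and is needed for their upkeep and for the start of spermatogenesis. The pathway is steered mainly through phosphorylation, which RNA counts do not show.

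Libraries held 8428871 to 12497967 counted reads. Genes with any reads numbered 19127, 19152 and 19447 in the knockouts and 16822, 18138 and 17557 in the controls, fewer in every control. Control 1 had the fewest reads and the fewest genes. The part of this difference in the results was not tested. Ddx20 had 128, 168 and 119 reads in the knockout libraries and 668, 383 and 531 reads in the control libraries, so every knockout library lay below every control library. Knockout 1 and knockout 2 resembled each other far more than any other pair, with a mean chi-square per gene of 1.78, where sampling noise gives about 1, against 11.96 to 104 for the other 14 pairs. The share of reads from mitochondrial genes was 19.8% to 20.1% in knockouts and 14.0% to 16.9% in controls. With those genes left out, 716 genes differed at an edgeR adjusted p under 0.05, against 713 with them. Foxo3 then had a log2 fold change of −0.87 (edgeR adjusted p 0.0454). What else may differ between the libraries along with that share was not tested. Results are also given with knockout 1 and knockout 2 counted as 1 library. CPM is counts per 1000000, with library sizes scaled by TMM, a normalization between libraries. The germ cell gene Dazl stood at 3132 ± 169 CPM in knockouts and 2767 ± 401 CPM in controls (SD, n = 3 each). Its groups overlapped (edgeR adjusted p 0.645), and it is 1 of the 5 germ cell markers whose sums are given below. Thy1 itself was low, at 6.48 ± 0.80 CPM in knockouts and 9.01 ± 4.17 CPM in controls (SD, n = 3 each).

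Of the 7 members tested, 1 fell in the knockouts, 0 rose and 6 did not pass, at an adjusted p under 0.05 by the edgeR quasi-likelihood test. Over all 14766 genes tested the same rule called 4.83%, with 2.80% lower and 2.03% higher in knockouts. The called member was Foxo3. Foxo1 and Irs2 were also below every control in each knockout library without passing, while Pik3ca, Pik3r1, Akt1, Akt2 and Foxo4 overlapped between the groups. Groups that did not overlap were no rarity here, since 32.6% of all genes tested were apart, 15.8% lower in every knockout and 16.8% higher in every knockout. At an unadjusted p under 0.05, which 3 members reached, edgeR had 24.1% of all genes. DESeq2 and limma-voom each called 3 members (Foxo1, Foxo3 and Irs2), where they called 9.02% and 18.7% of all genes they tested. With knockout 1 and knockout 2 counted as 1 library, 0 of the members passed by edgeR, DESeq2 or limma-voom. Scaling by library size alone called 226 genes higher and 1152 lower in place of 300 higher and 413 lower, and shifted the all-gene median to −0.26 on the log2 scale, so directions below are relative to the scaling used (TMM). In bulk libraries fewer cells of a type and less RNA per cell cannot be told apart.

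**Figure D1:**
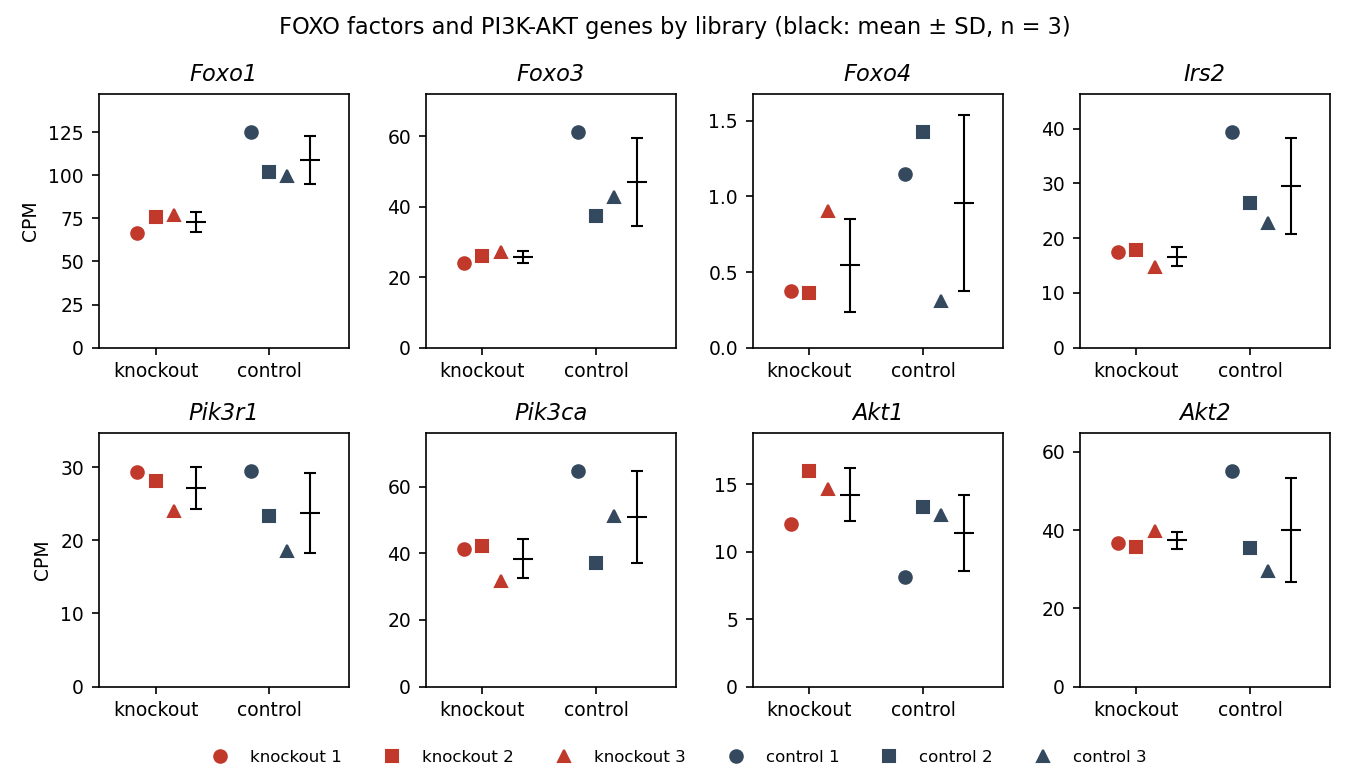
Expression in CPM (linear axes from 0, a panel per gene) of each member in the 3 knockout libraries (red, left) and the 3 control libraries (dark, right), with the mean ± SD in black. The groups are apart in Foxo1, Foxo3 and Irs2 and overlap in the other panels, and control 1 is the highest library in 6 of the 8 genes.

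Foxo3, the factor best known for holding resting cells out of the cycle, was the member with the clearest difference. The gene (ENSMUSG00000048756) lies on the minus strand of chromosome 10 at 42181841 to 42276755 of mm10. It had 257, 286 and 302 reads in the knockouts and 640, 393 and 557 reads in the controls, which is 23.9, 25.9 and 27.2 CPM in knockouts and 61.1, 37.3 and 42.7 CPM in controls. The knockout libraries sat close together, and the lowest control was 1.37 times the highest knockout. The controls were spread more widely, control 1 being 1.64 times control 2. Foxo3 averaged 25.7 ± 1.66 CPM in knockouts and 47.0 ± 12.5 CPM in controls (SD, n = 3 each), and so was 1.83-fold lower in knockouts. On the log2 scale it fell by 0.87 ± 0.21 (SE; 95% interval −1.35 to −0.40), with an edgeR adjusted p of 0.0458. This call lay close to the threshold: leaving out any one of the 6 libraries ended it (edgeR adjusted p 0.0552 to 0.221, log2 fold change −1.002 to −0.64). With knockout 1 and 2 counted as 1 library the log2 fold change was −0.85 with an adjusted p of 0.210 by edgeR, 0.0867 by DESeq2 and 0.118 by limma-voom. It was −0.72 with an edgeR adjusted p of 0.0583 when the trends with gene length and GC content were removed.

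Foxo1 was the most abundant member per kilobase in both groups. The gene (ENSMUSG00000044167) lies on the plus strand of chromosome 3 at 52268336 to 52353221. It had 714, 834 and 858 reads in the knockouts and 1308, 1075 and 1297 reads in the controls. Scaled, these were 66.4, 75.7 and 77.2 CPM in knockouts and 125, 102 and 99.4 CPM in controls. All 3 knockouts were below all 3 controls, with the lowest control 1.29 times the highest knockout. The mean was 73.1 ± 5.87 CPM in knockouts and 109 ± 14.0 CPM in controls (SD, n = 3 each), a log2 fold change of −0.57 ± 0.15 (SE; 95% interval −0.91 to −0.23) with an edgeR adjusted p of 0.0600, which missed the threshold. DESeq2 and limma-voom put the adjusted p at 0.0247 and 0.0112, and with knockout 1 and 2 as 1 library it was 0.275 by edgeR. An antisense gene, Gm20402, covers 7.78% of the exon bases of Foxo1, and reads from the strands cannot be told apart there.

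Foxo4, the X-linked member of the family, was barely detected. The gene (ENSMUSG00000042903) lies on the plus strand of chromosome X at 101254528 to 101260873. It had 4, 4 and 10 reads in the knockouts and 12, 15 and 4 reads in the controls, too few for the filter on low counts. In CPM these were 0.372, 0.363 and 0.900 in knockouts and 1.15, 1.42 and 0.307 in controls. Control 3 was the lowest of all 6 libraries and control 2 the highest, so the groups overlapped. An exact two-sided permutation test on log2(CPM + 0.5) gave p = 0.4, where 3 against 3 libraries can give no less than 0.1. A difference in Foxo4 was not detectable at this depth.

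The levels of the factors can be set side by side once divided by exon length (RPKM, the CPM per kilobase of exon). Their sum was 10.9, 12.3 and 12.8 RPKM in the knockouts and 22.8, 17.1 and 17.2 RPKM in the controls. Foxo1 made up 70.1%, 71.2% and 69.8% of that sum in the knockouts and 63.2%, 68.8% and 66.7% in the controls, and Foxo3 made up 28.9%, 27.95% and 28.1% in the knockouts and 35.4%, 28.8% and 32.8% in the controls. Foxo1 thus supplied most FOXO transcript in every library. The ratio of Foxo1 to Foxo3 was 2.43, 2.55 and 2.48 in knockouts and 1.79, 2.39 and 2.04 in controls, with the groups just apart. Control 2 came near the knockouts. These sums and ratios are descriptions and were not tested.

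Promoter windows from RefSeq (GRCm38.p6, 250 bases before to 50 bases after a start site, read 5′ to 3′ on the gene's strand) were held for 7 of the 8 members, in 12 windows. Foxo1, Foxo3 and Irs2 are shown because they are the members that were lower in every knockout. They were searched on both strands for GTAAACA, the DNA element FOXO proteins bind best, and for CAAAACA, the core of the insulin response sequence, and a match of either cannot also be a match of the other. Capitals mark a match. The windows are chr3:52268087-52268386 (plus strand), chr10:42276646-42276945 (minus strand) and chr8:11008880-11009179 (minus strand).
Foxo1: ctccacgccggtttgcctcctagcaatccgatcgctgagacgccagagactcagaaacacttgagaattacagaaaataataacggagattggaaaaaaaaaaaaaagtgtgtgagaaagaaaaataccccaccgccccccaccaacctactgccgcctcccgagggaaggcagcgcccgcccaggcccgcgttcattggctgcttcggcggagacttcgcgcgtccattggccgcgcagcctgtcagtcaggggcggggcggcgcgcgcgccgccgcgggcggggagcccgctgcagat
Foxo3: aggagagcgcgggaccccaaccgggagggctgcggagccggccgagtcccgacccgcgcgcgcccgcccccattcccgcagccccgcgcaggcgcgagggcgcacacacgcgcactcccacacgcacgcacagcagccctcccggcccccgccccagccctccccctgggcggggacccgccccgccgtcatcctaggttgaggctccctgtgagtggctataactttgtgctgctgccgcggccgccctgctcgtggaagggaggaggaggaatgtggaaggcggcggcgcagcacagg
Irs2: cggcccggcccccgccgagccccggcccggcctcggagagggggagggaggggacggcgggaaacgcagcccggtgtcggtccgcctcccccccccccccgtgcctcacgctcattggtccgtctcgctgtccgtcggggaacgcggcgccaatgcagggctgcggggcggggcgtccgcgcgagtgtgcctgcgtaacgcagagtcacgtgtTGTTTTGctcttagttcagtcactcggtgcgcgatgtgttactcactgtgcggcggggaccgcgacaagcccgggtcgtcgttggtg
The Irs2 window held CAAAACA, read as TGTTTTG on the gene's strand, starting 37 bases before RefSeq's start site, and the Foxo1 and Foxo3 windows held neither element. Of all 32851 RefSeq windows, 6.28% held CAAAACA and 3.65% held GTAAACA. The sole member window with GTAAACA was 1 of those of Akt1, where it reads TGTTTAC and starts 161 bases before the start site. GC content was 61.3% in the Foxo1 window, 75.0% in the Foxo3 window and 72.0% in the Irs2 window, against a median of 52.7% over all windows.

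Irs2, the adaptor that links insulin and IGF receptors to PI3K and itself a known FOXO target in the liver, resembled the factors. The gene (ENSMUSG00000038894) lies on the minus strand of chromosome 8 at 10984681 to 11008458. It had 188, 196 and 163 reads in the knockouts and 412, 278 and 296 reads in the controls. In CPM these were 17.5, 17.8 and 14.7 in knockouts and 39.4, 26.4 and 22.7 in controls. Every knockout lay below every control, but control 1 stood 1.73 times above control 3, and the lowest control was 1.28 times the highest knockout. The means were 16.6 ± 1.71 CPM in knockouts and 29.5 ± 8.75 CPM in controls (SD, n = 3 each), a log2 fold change of −0.82 ± 0.25 (SE; 95% interval −1.37 to −0.28) that did not pass by edgeR (adjusted p 0.0799). DESeq2 and limma-voom gave adjusted p values of 0.0476 and 0.0358. Without control 1 the log2 fold change was −0.56 with an edgeR adjusted p of 0.130, and the antisense gene 9530052E02Rik covers 2.56% of its exon bases.

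The subunits of PI3K did not pass. Pik3ca encodes the catalytic alpha subunit (ENSMUSG00000027665) and lies on the plus strand of chromosome 3 at 32397671 to 32468486. It had 41.4, 42.2 and 31.7 CPM in knockouts and 64.6, 37.1 and 51.1 CPM in controls. The groups overlapped because control 2 lay below knockout 1 and knockout 2. The means were 38.4 ± 5.84 CPM in knockouts and 50.9 ± 13.7 CPM in controls (SD, n = 3 each), with a log2 fold change of −0.41 (95% interval −0.90 to 0.08) and an edgeR adjusted p of 0.295. It was −0.20 without control 1, −0.58 without control 2, −0.23 with the length and GC trends removed and −0.11 by limma-voom.

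Pik3r1 encodes the regulatory subunit that stabilises and restrains the catalytic ones (ENSMUSG00000041417), and lies on the minus strand of chromosome 13 at 101680563 to 101768217. It had 29.4, 28.0 and 23.9 CPM in knockouts and 29.4, 23.3 and 18.5 CPM in controls. Control 1 matched knockout 1 and control 3 was the lowest library. The log2 fold change was 0.19 (95% interval −0.30 to 0.69; edgeR adjusted p 0.643), and it turned to −0.08 with scaling by library size alone. It was 0.04 without control 3, 0.38 without control 1, 0.39 with the length and GC trends removed and 0.35 by limma-voom. Per kilobase, the ratio of Pik3ca to Pik3r1 was 1.56, 1.67 and 1.47 in knockouts and 2.43, 1.77 and 3.07 in controls, lower in every knockout, a description chosen after the values of both genes were seen.

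The AKT kinases showed no difference beyond the spread of the libraries. Akt1 (ENSMUSG00000001729), the isoform most tied to growth and survival, lies on the minus strand of chromosome 12 at 112653821 to 112674884. It had 12.1, 15.97 and 14.7 CPM in knockouts and 8.12, 13.3 and 12.7 CPM in controls. It was the member in which control 1 was lowest of all libraries. The log2 fold change was 0.32 (95% interval −0.30 to 0.95; edgeR adjusted p 0.527), and it was 0.13 without control 1, 0.21 by limma-voom and 0.08 with library size alone.

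Akt2 (ENSMUSG00000004056), the isoform most tied to glucose uptake under insulin, lies on the plus strand of chromosome 7 at 27591552 to 27640826. It had 36.6, 35.7 and 39.7 CPM in knockouts and 55.0, 35.5 and 29.4 CPM in controls. The knockouts lay inside the range of the controls. The log2 fold change was −0.10 (95% interval −0.61 to 0.42; edgeR adjusted p 0.845), and it was 0.20 without control 1, −0.16 without control 2, −0.28 without control 3, 0.07 with the length and GC trends removed and 0.02 by limma-voom. The intervals of both kinases still hold sizeable changes, so equal levels are not shown.

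**Figure D2:**
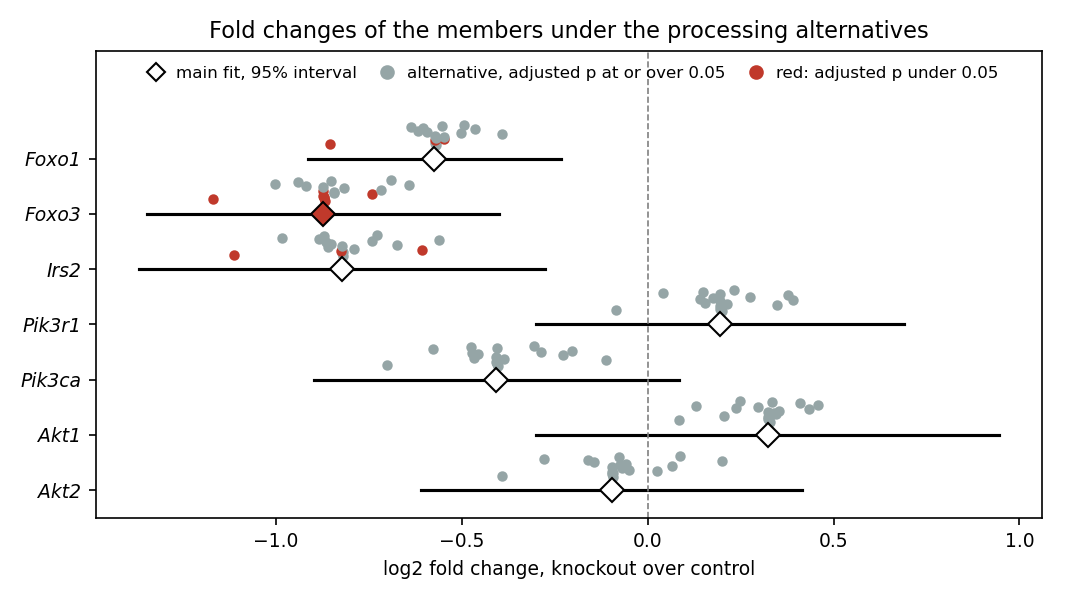
Log2 fold change, knockout over control, of the 7 tested members (rows): diamonds with 95% intervals are the values reported, and the dots above each are the 18 alternative analyses, red where the adjusted p was under 0.05. Foxo1, Foxo3 and Irs2 lie below 0 in all 18, Foxo3 is red in 7 of them and Foxo1 and Irs2 in 3 each.

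Ordered by level per kilobase, the knockouts ran Foxo1 (8.43 RPKM), Akt2 (5.24), Pik3ca (4.23), Akt1 (3.48), Foxo3 (3.39), Pik3r1 (2.69), Irs2 (2.63) and Foxo4 (0.156), each a mean of 3 libraries. The controls ran Foxo1 (12.6 RPKM), Foxo3 (6.21), Akt2 (5.61), Pik3ca (5.60), Irs2 (4.66), Akt1 (2.78), Pik3r1 (2.35) and Foxo4 (0.275). Foxo1 at the head and Foxo4 at the foot were apart from their neighbours in both groups. In the knockouts the ranges of Pik3ca, Akt1 and Foxo3 overlapped along the order, as did those of Pik3r1 and Irs2. In the controls Foxo3, Akt2, Pik3ca and Irs2 formed one overlapping run, and Akt1 and Pik3r1 another. Dividing by the longest coding transcript instead raised Akt2 to 8.22 RPKM in knockouts and 8.80 RPKM in controls, where its range met that of Foxo1.

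**Figure D3:**
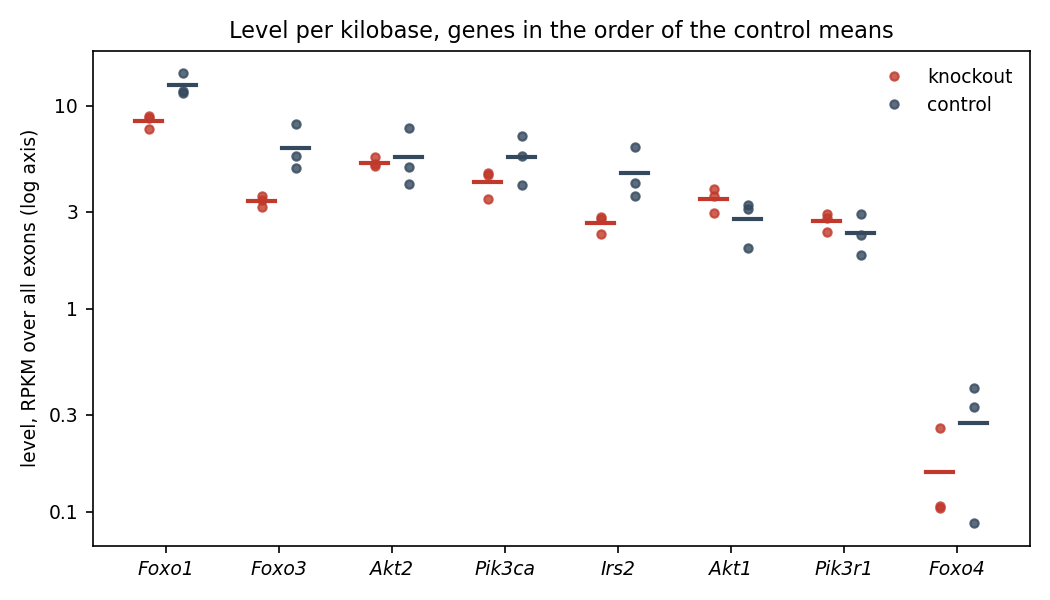
Level per kilobase of exon (RPKM, log axis) of the 8 members in the order of the control means, with a dot for each of 3 knockout libraries (red, left of each pair) and 3 control libraries (dark), and a bar for the mean. Foxo1 is highest and Foxo4 lowest in both groups, and Foxo3 and Irs2 hold a lower place in the order in the knockouts.

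The genes whose pattern over the 6 libraries was most like that of Foxo3 were Ecpas, Nup62 and Rest. Likeness was the root mean square difference in log2 CPM about each gene's own mean, over 6 libraries, among 7745 protein-coding genes with a mean of at least 10 CPM. It was 0.0641 for Ecpas, a proteasome adaptor gene, 0.0686 for Nup62, a nuclear pore gene, and 0.0800 for Rest, a transcriptional repressor gene. Ecpas averaged 66.6 CPM in knockouts and 116 CPM in controls, Nup62 averaged 44.5 CPM in knockouts and 76.8 CPM in controls, and Rest averaged 102 CPM in knockouts and 179 CPM in controls. All genes were read from the same 6 libraries, each with its own depth and scaling, so the likeness describes these values alone.

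The rest of the pathway was read from 8 lists with 124 genes between them, of which 117 were tested. Of these 1 rose and 10 fell, which is 0.855% and 8.55%, against 2.03% and 2.80% of all genes tested. The groups did not overlap in 31 that were lower (26.5%) and 11 that were higher (9.4%) in knockouts, against 15.8% and 16.8% of all genes tested. The median log2 fold change was −0.25 over the 117 genes and 0.01 over all genes tested. With knockout 1 and 2 counted as 1 library 0 of them passed by edgeR. DESeq2 then called 7 of 89 (7.87%, against 5.22% of all genes) and limma-voom 5 of 117 (4.27%, against 2.65% of all genes), and by edgeR 2, Ccng2 and Crebbp, passed without control 2. Without knockout 1, 2 or 3 the count was 0. With the length and GC trends removed it was 9, with 1 higher and 8 lower. The lists were chosen with earlier results of these data known. Their shares and medians are therefore descriptions, and a difference from all genes was not tested.

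The list of receptors and adaptors upstream of PI3K also holds Sos1 and Sos2, which are exchange factors of RAS. It had 3 genes lower, 0 higher and 15 not passing among 18 tested, with a median log2 fold change of −0.48. The median was −0.34 by limma-voom, and −0.35 with the length and GC trends removed, where 1 gene was lower. Kit, the receptor for stem cell factor, averaged 15.5 ± 2.08 CPM in knockouts and 31.5 ± 2.82 CPM in controls (SD, n = 3 each). Gfra1 and Ret, which form the receptor for the niche factor GDNF, had log2 fold changes of −0.69 and −0.67. Their edgeR adjusted p values were 0.0269 for Kit, 0.0395 for Gfra1 and 0.0415 for Ret, and removing the trends with length and GC content put Gfra1 at 0.0532 and Ret at 0.0582. Kit also stands among the markers of differentiating spermatogonia below, and Gfra1 and Ret among those of undifferentiated ones. Irs1, chosen here after its values were seen, had 23 reads in the knockouts and 7 in the controls and was not tested.

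Among 13 other PI3K subunits and regulators 1 fell, 0 rose and 12 did not pass, with a median log2 fold change of −0.25, which was −0.12 without knockout 2, −0.16 without control 2 and −0.11 with knockout 1 and 2 as 1 library. The one that fell was Pik3c2b, a class II PI3K, at 12.7 ± 2.53 CPM in knockouts and 26.7 ± 2.11 CPM in controls (log2 fold change −1.07, edgeR adjusted p 0.0314, 0.0535 with the length and GC trends removed and 0.0516 without control 3). The list of AKT-activating kinases and mTOR complex 2 has 8 genes and also holds Deptor, an inhibitor of mTOR (log2 fold change −0.53, adjusted p 0.346 by edgeR). Of the 8, 0 passed by edgeR, with 2 at an unadjusted p under 0.05, 1 passing by DESeq2 and 1 by limma-voom. The shares over all genes were 24.1% at that unadjusted p, 9.02% by DESeq2 and 18.7% by limma-voom. The median of the 8 was −0.52 (−0.30 by limma-voom). Rictor, the defining subunit of mTOR complex 2, averaged 38.8 ± 6.36 CPM in knockouts and 61.0 ± 2.21 CPM in controls (edgeR adjusted p 0.0573). Pdpk1, a kinase that phosphorylates AKT, averaged 13.1 ± 3.35 CPM in knockouts and 23.0 ± 3.41 CPM in controls (edgeR adjusted p 0.0944).

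Of 16 genes that brake the pathway 0 passed by edgeR, with 3 higher and 3 lower at an unadjusted p under 0.05, 0 passing by DESeq2 and 3 by limma-voom. Of all genes tested, 24.1% had such an unadjusted p by edgeR, while DESeq2 called 9.02% and limma-voom 18.7%. The list median was −0.19, and it was −0.07 without knockout 3, −0.0039 without control 1 and 0.03 by limma-voom. Inpp4b, a lipid phosphatase, averaged 18.5 ± 4.92 CPM in knockouts and 9.81 ± 1.04 CPM in controls (edgeR adjusted p 0.0811). Ppp2cb, a catalytic subunit of protein phosphatase 2A, averaged 63.0 ± 2.78 CPM in knockouts and 86.9 ± 14.0 CPM in controls (edgeR adjusted p 0.114). Of 4 related FOXO and kinase genes tested, Foxo6 and Sgk1 among them, 0 passed by edgeR, DESeq2 or limma-voom and 0 had an unadjusted p under 0.05. Foxo6 averaged 2.07 CPM in knockouts and 3.70 CPM in controls, and Sgk1 62.7 CPM in knockouts and 66.5 CPM in controls.

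Among 11 AKT substrates 1 fell and 10 did not pass (median −0.29, and −0.14 with the length and GC trends removed). Acly, the enzyme that makes acetyl-CoA from citrate, averaged 167 ± 6.17 CPM in knockouts and 282 ± 65.0 CPM in controls (edgeR adjusted p 0.0439). Among 19 partners and regulators of FOXO proteins 3 fell, 1 rose and 15 did not pass (median −0.33, and −0.19 without control 3). With the length and GC trends removed the median was −0.15, and 2 fell and 1 rose. Crebbp, an acetyltransferase and coactivator, averaged 107 ± 19.8 CPM in knockouts and 222 ± 26.5 CPM in controls (log2 fold change −1.06, edgeR adjusted p 0.0170). Xpo1, which exports FOXO proteins and other cargo out of the nucleus, fell by 0.76 on the log2 scale, and Usp7, which removes ubiquitin from them, fell by 0.69 (edgeR adjusted p 0.0300 and 0.0361), Usp7 standing at 0.0545 with the length and GC trends removed. Sfn, of the family of adaptor proteins that hold phosphorylated FOXO in the cytoplasm, averaged 13.2 ± 1.63 CPM in knockouts and 3.33 ± 1.90 CPM in controls (log2 fold change 1.97, edgeR adjusted p 0.0288).

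Known FOXO targets lay on both sides of 0. Of 30 tested by edgeR 2 fell, 0 rose and 28 did not pass. DESeq2 called 2 higher and 5 lower, and limma-voom 3 higher and 5 lower, where they called 9.02% and 18.7% of all genes. By edgeR 15 lay below 0 and 15 above. The groups did not overlap in 6 that were higher (20%) and 5 that were lower (16.7%), against 16.8% and 15.8% of all genes tested. The median log2 fold change was −0.00, running from −0.24 with library size alone to 0.06 without knockout 3. Ccng2, an unusual cyclin linked to cell cycle arrest, had 9.57, 9.52 and 11.2 CPM in knockouts and 31.4, 24.2 and 42.2 CPM in controls. Its groups were far apart, with a log2 fold change of −1.69 ± 0.25 (SE) and an edgeR adjusted p of 0.0119. Cdkn1b, the inhibitor of cyclin-dependent kinases also called p27, had 6.79, 6.35 and 5.58 CPM in knockouts and 16.9, 17.4 and 11.8 CPM in controls. Its log2 fold change was −1.30 ± 0.29 (SE), with an edgeR adjusted p of 0.0337 that became 0.0814 without control 2. These counts do not measure the activity of FOXO proteins.

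**Figure D4:**
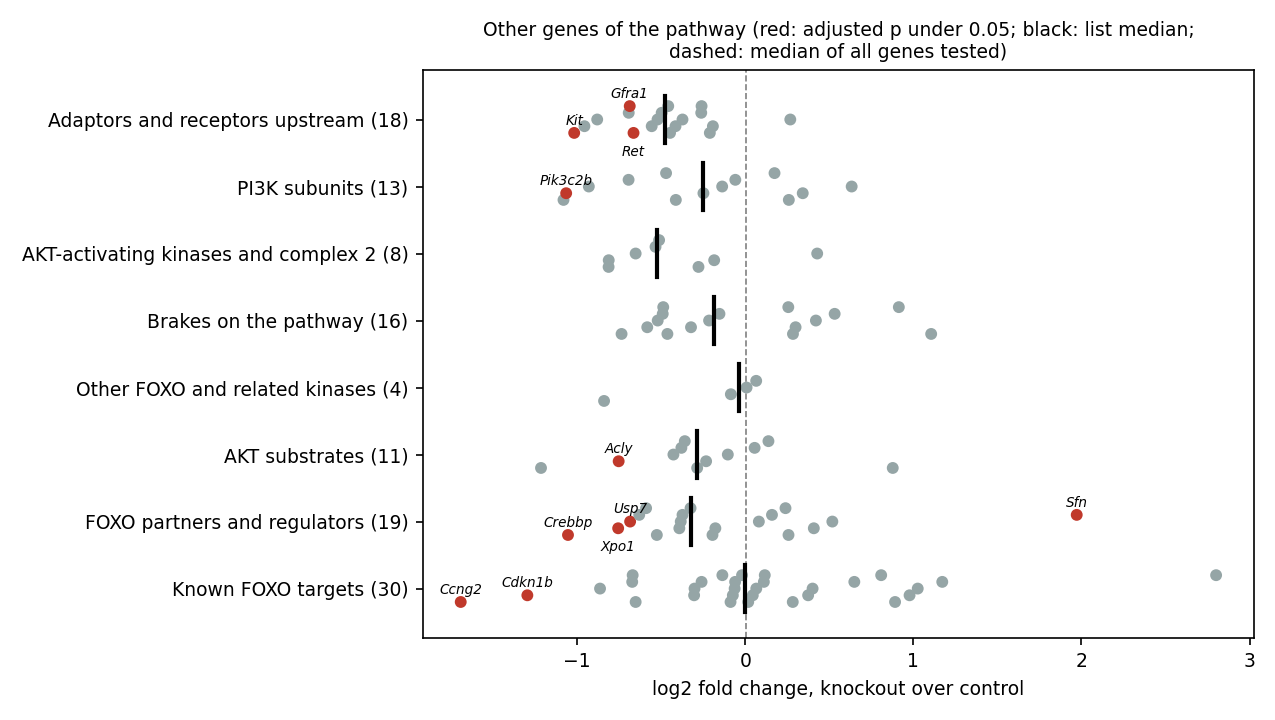
Log2 fold change, knockout over control, of the tested genes of 8 lists around the members (rows, number tested in brackets), red and named where the adjusted p was under 0.05, with the list median as a black bar and the median of all genes as a dashed line. The 10 genes that fell lie left of the line and Sfn, in the list of partners, lies right of it.

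The 11 markers of undifferentiated spermatogonia, of which 3 fell and 0 rose, summed to 469 to 509 CPM in knockouts and 718 to 788 CPM in controls. The 5 markers of differentiating spermatogonia (2 fell, 0 rose) summed to 147 to 157 CPM in knockouts and 220.3 to 249.9 CPM in controls. Much of that gap came from Stra8: without it the sums were 100 to 110 CPM in knockouts and 119 to 130.5 CPM in controls. The median log2 fold change of the 5 was −0.05. The 5 general germ cell markers (0 fell, 1 rose) summed to 4972 to 5474 CPM in knockouts and 3532 to 4766 CPM in controls. Set against the undifferentiated markers, Foxo1 had 13.4, 16.1 and 15.2 CPM per 100 CPM of markers in knockouts and 15.9, 14.0 and 13.9 in controls, and these groups overlapped. Foxo3 had 4.82, 5.53 and 5.34 in knockouts and 7.76, 5.12 and 5.95 in controls, and Irs2 had 3.53, 3.79 and 2.88 in knockouts and 4.997, 3.62 and 3.16 in controls, overlapping as well. The divisor was itself lower in every knockout and holds Gfra1, Etv5 and Ret, the markers that fell. Dividing by it thus narrows a fall in any gene, and what the overlap reflects was not tested.

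Peritubular myoid markers (6, with 2 higher) summed to 163 to 233 CPM in knockouts and 64.5 to 80.7 CPM in controls, Sertoli markers (7, with 2 higher) to 63.7 to 64.5 CPM in knockouts and 32.75 to 38.3 CPM in controls, and T cell markers (6, with 2 higher) to 44.6 to 67.6 CPM in knockouts and 23.2 to 27.8 CPM in controls. A single gene made up much of the first and second sums: without Acta2 the myoid markers summed to 25.7 to 26.4 CPM in knockouts and 7.21 to 16.7 CPM in controls, and without Inha the Sertoli markers summed to 25.8 to 34.4 CPM in knockouts and 24.01 to 28.4 CPM in controls, which overlap. Endothelial markers (6) summed to 66.25 to 75.0 CPM in knockouts and 50.4 to 52.7 CPM in controls, Leydig markers (6) to 45.2 to 62.4 CPM in knockouts and 23.2 to 60.8 CPM in controls, and macrophage markers (6) to 721 to 909.6 CPM in knockouts and 384 to 753 CPM in controls, with 0 passing by edgeR in these lists. Each marker had reads in both groups, though Amh had 4 reads in the knockouts and 3 in the controls. The members are expressed in somatic cells too, and the part of these cells in the values above was not tested.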

How the data were processed

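RNA of about 1000 sorted cells per library was copied with an oligo-dT primer, amplified by SMART-seq2 and sequenced as paired 150 bp reads, per the labels' protocols. The method adds no molecular identifiers and keeps no strand, so PCR copies are counted and intervals cover counting and library spread only. The authors deposited whole-number read counts per Ensembl gene. Their column of mean counts, treated as a score, and their column of sums were deposited too and not used. Per the submitters' processing notes, the build was mm10 and the tools edgeR, DESeq2, StringTie 2.1.7, STAR 2.7.5c and Trimmomatic 0.39, without roles. Which program counted, and on which annotation, is not given in the sources used here.

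Symbols, positions and exon lengths came from GENCODE M21 on the same build, matching 22562 of 22579 identifiers. The unmatched rows hold 0.0023% of counts and were kept. Counts were tested with the edgeR 4.0.16 quasi-likelihood test in R 4.3.3 (robust dispersion, TMM scaling, filterByExpr, genotype as the sole term), with Benjamini-Hochberg adjustment over 14766 genes and a threshold of 0.05. Each SE is the absolute log2 fold change divided by the root of F. CPM uses TMM-scaled library sizes, and RPKM divides it by exon length in kilobases. p-values measure the spread between these libraries, which may be technical. Alternatives were other scalings and filters, DESeq2 1.42.0, limma-voom (limma 3.58.1), a replicate block, each library left out, knockout 1 and 2 merged by their rounded mean, mitochondrial genes left out, and lowess trends with length and GC content (span 0.3) removed. DESeq2 and limma-voom on the merged libraries were added after seeing the data.

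The members and lists were chosen with earlier results of these data known, so no test is given over the members as a set. Named genes are the 8 members and Ddx20, the called genes of each list up to 4 by smallest p (else the 2 with the smallest p), the 3 genes most like each called member, and markers where a result turns on them. Dazl, Thy1, Deptor, Sos1 and Sos2 are named outside these rules. Any further gene is said to be picked with its values in view, as were the sums, shares and ratios.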

Additional observations from a re-analysis of the deposited data

How the results depend on the processing

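Over 18 alternatives and 7 tested members, 104 fold changes kept their direction and side of the threshold, 11 lost the call (all Foxo3), 6 gained one (3 each for Foxo1 and Irs2) and 5 turned sign. The turned values were −0.084 for Pik3r1 with library size alone, and for Akt2 0.20 without control 1 (the lowest without 1 library was −0.28), 0.065 with the length and GC trends removed, 0.025 by limma-voom and 0.088 by limma-voom with knockout 1 and 2 as 1 library. The count of members called was 3 with library size alone, by DESeq2 and by limma-voom, and 0 with the replicate block, with the length and GC trends removed and with knockout 1 and 2 as 1 library by all 3 tests. It was 0 without any one library. For all genes, against 713, the count was 1378 with library size alone, 1602 by DESeq2, 2765 by limma-voom and, with knockout 1 and 2 as 1 library, 1 by edgeR (2150 at an unadjusted p under 0.05), 466 by DESeq2 and 408 by limma-voom. It was 5, 10 and 3 without knockout 1, 2 or 3, and 839, 182 and 816 without control 1, 2 or 3. For the pathway lists, against 11, it was 17 with library size alone, 18 by DESeq2, 25 by limma-voom, 0, 7 and 5 by the 3 tests with knockout 1 and 2 as 1 library, and 0 to 13 when 1 library was left out. The cause of these shifts was not tested. Same-numbered libraries did not deviate together (r 0.00085, 0.0116 and 0.0165 over genes). Whether the numbers pair them cannot be told from this. The deviations were taken from the mean of each group of 3, and knockout 1 and 2 are closely alike, so the 3 values are not separate checks. The labels do not say which animals gave which library. The replicate block called 683 genes. It put Foxo3 at an edgeR adjusted p of 0.0537, Gfra1 at 0.0518, Ret at 0.0502 and Acly at 0.0507, which ends these calls. Foxo4, with 18 reads in knockouts and 31 in controls, is limited by depth.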

Other observations

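Several known FOXO targets had fold changes that did not pass, here chosen after their values were seen. Fbxo32, a ubiquitin ligase gene of muscle wasting, had 3.35, 3.63 and 9.27 CPM in knockouts and 0.96, 1.23 and 0.15 CPM in controls, higher in every knockout (edgeR adjusted p 0.0600). Of the autophagy genes of that list, Gabarapl1 averaged 12.2 ± 2.66 CPM in knockouts and 22.3 ± 1.49 CPM in controls, and Atg14 averaged 36.2 ± 1.21 CPM in knockouts and 57.7 ± 14.3 CPM in controls (edgeR adjusted p 0.0639 and 0.0749). Bnip3, which marks mitochondria for autophagy, averaged 80.9 ± 11.4 CPM in knockouts and 46.1 ± 19.9 CPM in controls (edgeR adjusted p 0.106; SD, n = 3 each throughout). Map1lc3b, Ulk1 and Pink1, of the same process, had log2 fold changes of −0.14, −0.30 and 0.06 and did not pass.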
